A study of Homo sapiens with 6 samples.

Results

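The genes described here are the Eph receptors and their ephrin ligands, the semaphorins and their plexin receptors, the Slit ligands and Robo receptors, and the netrins and their Unc5 receptors. They were chosen by symbol alone, and 63 of the 22989 genes in the deposited count table belong to them. The study sequenced RNA of 6 libraries, 3 with the label LINC00115 KD and 3 with the label WT, the latter called control here. All 6 libraries are described as paclitaxel (PTX)-resistant MDA-MB-231 BCSC, breast cancer stem cells of a human triple-negative breast cancer line, and the study's methods sort such cells by high aldehyde dehydrogenase (ALDH) activity. In the KD cells the long noncoding RNA LINC00115 is targeted by a short hairpin RNA (shRNA), with puromycin selection after infection according to the methods, and both groups share the paclitaxel resistance. The labels name the KD libraries sh115-1 to sh115-3 without saying whether these are different hairpins or replicates of 1 hairpin, while the study's text uses sh115-1 and sh115-2 for different hairpins and names sh115-2 as the hairpin behind its plot of genes that differ in KD cells. How that fits the library names is not said. They name no control hairpin for the WT cells, so effects of hairpin or vector and effects of less LINC00115 cannot be told apart. Nothing in the labels says that the libraries came from separate cultures, so the p-values measure only the spread between these libraries, which may be technical.

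Guidance genes were first studied in growing axons, where they steer the tip of the nerve fibre by attraction or repulsion, and most of them also act between epithelial, endothelial and tumour cells. Ephrins are held on the cell surface and signal to Eph receptor tyrosine kinases on the neighbouring cell, with signals running into both cells. Semaphorins are secreted or membrane-bound and act through plexins, for the secreted class 3 mostly together with the co-receptors Nrp1 and Nrp2. Slits act on Robo receptors, and netrins act on Dcc, Neo1 and the Unc5 receptors. All these systems converge on the actin skeleton, through which they change adhesion and migration.

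The libraries held between 36979221 and 38799331 counts, at which 3 counts, the limit that a count of 0 allows, correspond to 0.0773 to 0.0811 CPM, the usual unit in which a gene's count is scaled to its library's total. Such limits cover counting error only. The symbols are written in the style of mouse genes, and 277 genes with mouse-type Gm or Rik names had at least 100 counts in every library. Each of the 63 guidance symbols equals a human symbol apart from case. Because the gene models behind the counts are not known here, no sequences are given, and the gene order described below is that of the human assembly. The table has 0 rows named LINC00115, so the knockdown was not checked in these counts, and every direction rests on the group labels. Of 8 markers of mesenchymal breast cancer lines, Vim had at least 126885 counts and Cd44 at least 32751 counts in every library. Zeb1 (23 to 64 counts) and Lox (4 to 68) were low. S100a4 was called lower (log2 fold change −1.20) and Lox higher (3.21). Fn1 fell (−0.45), Vim and Axl rose (0.13 and 0.29), and Cd44, Msn and Zeb1 did neither. Of 8 luminal and epithelial markers, Epcam, Pgr and Cdh1 had at most 5, 3 and 31 counts. Krt18 had 4856 to 9369, Gata3 1985 to 3816 and Erbb2 592 to 1061 counts. Among the 8, Cdh1 (13.1-fold) and Esr1 (3.66-fold) were called higher. Krt18 and Erbb2 rose (log2 fold change 0.87 and 0.70), while Gata3 and Foxa1 fell (−0.85 and −0.99). Of 6 genes used to mark breast cancer stem cells, by a high level or, for Cd24a, by a low one, Itga6 and Cd24a fell (log2 fold change −0.44 and −0.84). Prom1 and Sox2 had at most 3 and 4 counts in any library. The list also held Aldh1a1 and Aldh1a3 of the ALDH family. Aldh1a1 had 12, 8 and 17 counts in the control and 52, 39 and 41 counts in the KD libraries and was called higher (3.53-fold), and Aldh1a3 had 0 to 4 counts. Summed over 8 lung epithelial markers, the level was 1.70 to 1.88 CPM in the control libraries and 72.4 to 82.3 CPM in the KD libraries, and all 8 markers were called higher. The 8 kidney markers summed to 8.28 to 8.56 and 21.4 to 25.5 CPM, and 4 were called higher. Among them, Kap had 0 counts in the control and 311 to 466 counts in the KD libraries and Umod 0 against 76 to 112, while Cubn, with 8.12 to 8.36 CPM most of the control sum, fell (log2 fold change −0.45). Sums of 8 fibroblast and pericyte markers lay between 175 and 194 CPM in the control and between 77.0 and 78.9 CPM in the KD libraries. Most of this was Pdgfra, called lower like Dcn, while Acta2 was called higher (log2 fold change 2.48). The 7 leukocyte markers in the table summed to 39.6 to 53.8 and 54.5 to 59.4 CPM, mostly Cd68, which was not called, while Lyz2 (8.25-fold) and Cd74 (3.52-fold) were called higher and Ptprc had at most 13 counts. The 6 neuron markers in the table summed to at most 0.609 CPM in any library. The part that RNA of other cells has in the results below was not tested.

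Guidance ligands and receptors shifted in both directions in the KD libraries. The test was edgeR's quasi-likelihood test over the 13497 genes that passed its filter on low counts, and the adjusted p-values given below are those of this test with Benjamini-Hochberg adjustment over all 13497 genes. In what follows, a gene rose or fell when its adjusted p-value was under 0.05, and it was called when its fold change was also over 2, the thresholds of the study's methods. In bulk counts, fewer cells that express a gene and less RNA per cell cannot be told apart. Of the 63 members, 46 passed the filter and 17 did not. Of the 46, 11 were called lower (23.9%) and 9 were called higher (19.6%), while of all genes tested 9.98% were called lower and 10.2% higher. Without the threshold on the fold change, 23 members fell (50%) and 18 rose (39.1%), beside 36.7% of all genes in each direction, and 5 did neither. The share of members that rose was thus close to that of all genes. Of the 46 tested members, 24 were lower and 18 higher in KD without overlap between the libraries. For all genes this holds for 37.8% in each direction, and the members higher in KD lay close to it. The median log2 fold change of the tested members was −0.216, beside −0.006 over all genes. It was −0.134 to −0.032 when single libraries were left out and 0.367 without the filter on low counts, so its sign depends on that filter. The median size of the change regardless of direction was 0.902, beside 0.453 over all genes. Some members passed the filter only through the group in which they are high, so the numbers were also taken over genes that reached 10 counts in each of the 6 libraries. There, 39 members remained, of which 9 were called lower (23.1%) and 6 higher (15.4%), beside 7.68% and 7.55% of all genes. The 5 called members left out by this limit were Plxna2, Sema6c, Slit1, Slit2 and Unc5d. Of the 28 ligands tested, 8 were called lower and 5 higher, and of the 18 receptors, 3 were called lower and 4 higher.

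**Figure D1:**
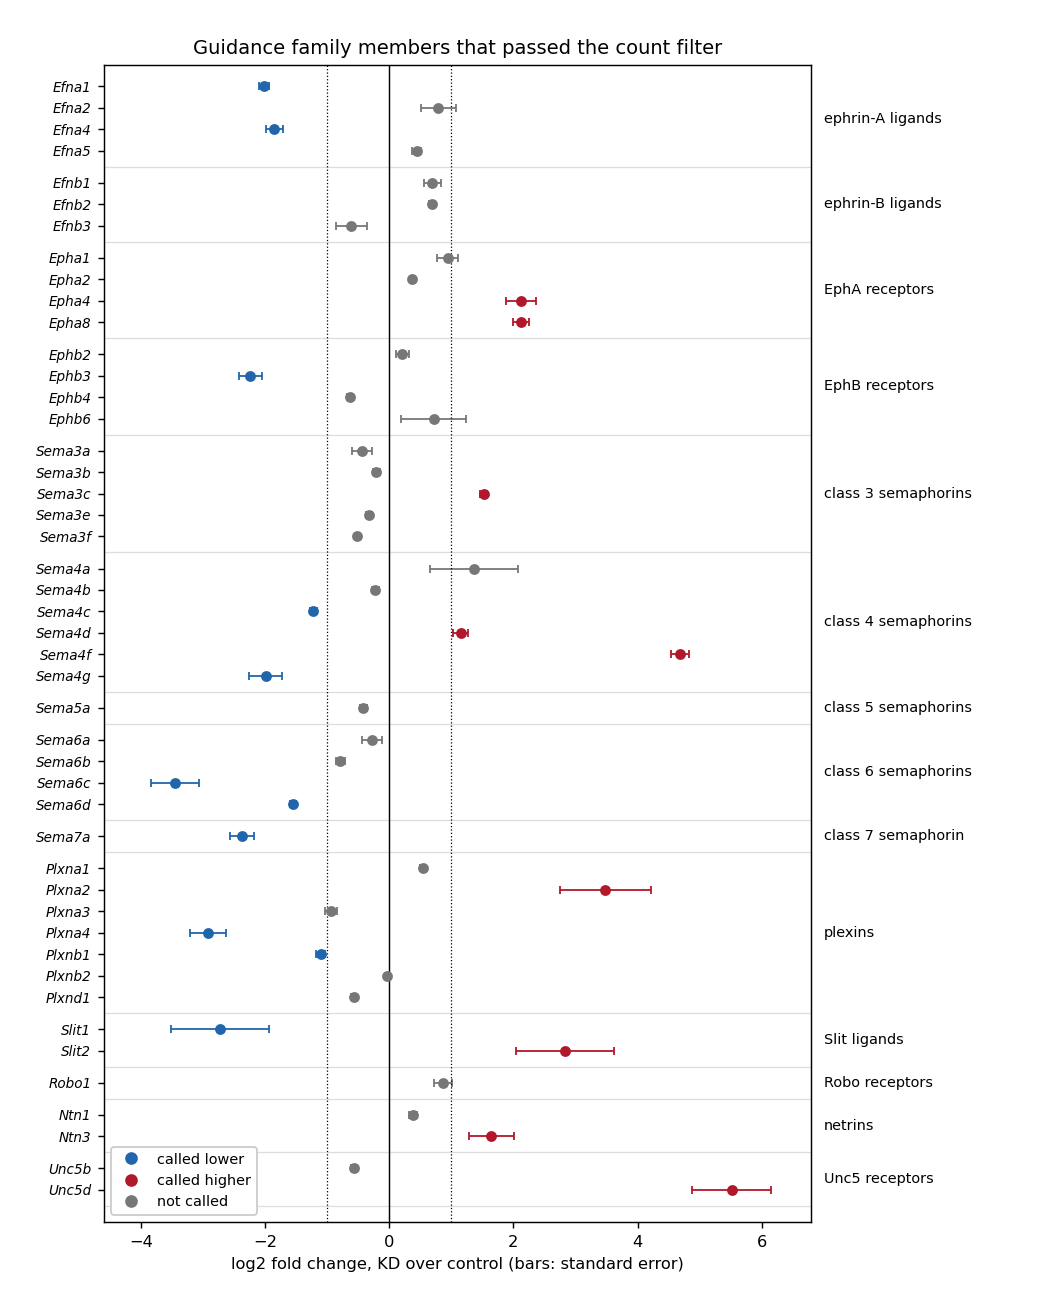
Log2 fold change (KD over control) of the 46 guidance genes that passed the count filter, grouped by family, with standard errors as bars. Dotted lines mark a fold change of 2. The 11 genes in blue were called lower, the 9 in red higher and those in grey were not called. The largest increase was that of Unc5d (5.52) and the largest decrease that of Sema6c (−3.46).

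Among the ephrins, the ligands of the A type went opposite ways and the abundant B-type ligand rose. Ephrin-A ligands are tied to the outer membrane by a lipid anchor, and Efna1 is a main partner of the receptor Epha2. Efna1 had 38.1, 38.4 and 39.1 normalized CPM in the control and 10.5, 8.85 and 9.22 in the KD libraries. The groups lay far apart, with a log2 fold change of −2.01 (standard error 0.08, edgeR's adjusted p = 1.64e-21), which is 4.04-fold lower. Efna4 had 12.1, 13.7 and 13.0 CPM in the control and 3.65, 4.004 and 3.05 CPM in the KD libraries and was called lower as well, by 3.62-fold (log2 fold change −1.86, standard error 0.14). Efna5 instead rose from 22.2, 25.4 and 25.6 CPM to 32.2, 34.9 and 32.3 CPM, a log2 fold change of 0.44 (edgeR's adjusted p = 1.95e-06). Efna2 had 48 to 70 counts in the control and 83 to 128 counts in the KD libraries, and rose with a log2 fold change of 0.79 (standard error 0.28). Efna3 had 2 to 13 counts in any library and was not tested.

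The B-type ephrins span the membrane and can signal into the cell that bears them. Efnb2, the ligand of Ephb4 that marks arterial endothelium, had 139, 144 and 139 CPM in the control libraries and 230, 212 and 234 CPM in the KD libraries. Every KD library lay above every control library, with a 1.60-fold rise (log2 fold change 0.68, standard error 0.04, edgeR's adjusted p = 5.52e-17). Efnb1 rose from 4.76 to 5.68 CPM over the control libraries to 8.35 to 8.80 CPM over the KD libraries (log2 fold change 0.69). Efnb3 fell by 0.61 on the log2 scale (edgeR's adjusted p = 0.0299), but control replicate 2, with 2.15 CPM, lay within the range of the KD libraries, 1.92 to 2.51 CPM.

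Among the Eph receptors, all 4 EphA genes that passed the filter rose, while of the 4 EphB genes 2 fell and 2 did not pass the test. Of all genes tested, 36.7% rose and 36.7% fell, and no family was tested as a set. Epha2, an EphA receptor common in basal-like breast cancer, had 327, 316 and 307 CPM in the control and 418, 395 and 414 CPM in the KD libraries, a 1.29-fold rise (log2 fold change 0.37, standard error 0.03, edgeR's adjusted p = 1.40e-11). Its ligand Efna1 thus changed the other way. Of the other ephrin-A ligands tested, Efna4 was called lower like Efna1, while Efna5 and Efna2 rose like Epha2. Epha8, best known from the midbrain, had 3.93, 3.73 and 2.86 CPM in the control and 17.0, 14.9 and 13.95 CPM in the KD libraries. This was a 4.36-fold rise (log2 fold change 2.12, standard error 0.13). Epha4, which binds ephrins of both types, rose 4.34-fold (2.12, standard error 0.24), from 64, 41 and 32 counts in the control to 181, 217 and 198 counts in the KD libraries. Epha1 lay just under the fold threshold, with 118 to 174 counts in the control and 239 to 325 in the KD libraries (log2 fold change 0.94, edgeR's adjusted p = 7.38e-06). Without control replicate 3 or without KD replicate 3 it was called higher (1.06 and 1.08). Epha3, Epha5 and Epha7 had at most 2 counts in any library.

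Ephb3, a receptor known from the sorting of intestinal crypt cells, was the EphB receptor with the largest change. It had 8.07, 10.3 and 9.18 CPM in the control and 2.40, 1.96 and 1.45 CPM in the KD libraries, 4.73-fold lower (log2 fold change −2.24, standard error 0.18, edgeR's adjusted p = 4.43e-13). Ephb4, the receptor of Efnb2, fell 1.56-fold, from 169, 165 and 157 CPM to 101, 107 and 107 CPM (log2 fold change −0.64, standard error 0.04). The ligand Efnb2 and this receptor therefore moved in opposite directions, both without overlap between the groups. Ephb2, a relative of Ephb3 that acts in the same crypts (log2 fold change 0.21, adjusted p = 0.0761) and Ephb6, a receptor without kinase activity (0.72, adjusted p = 0.216), did not pass edgeR's quasi-likelihood test. Ephb1 had at most 1 count in any library.

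**Figure D2:**
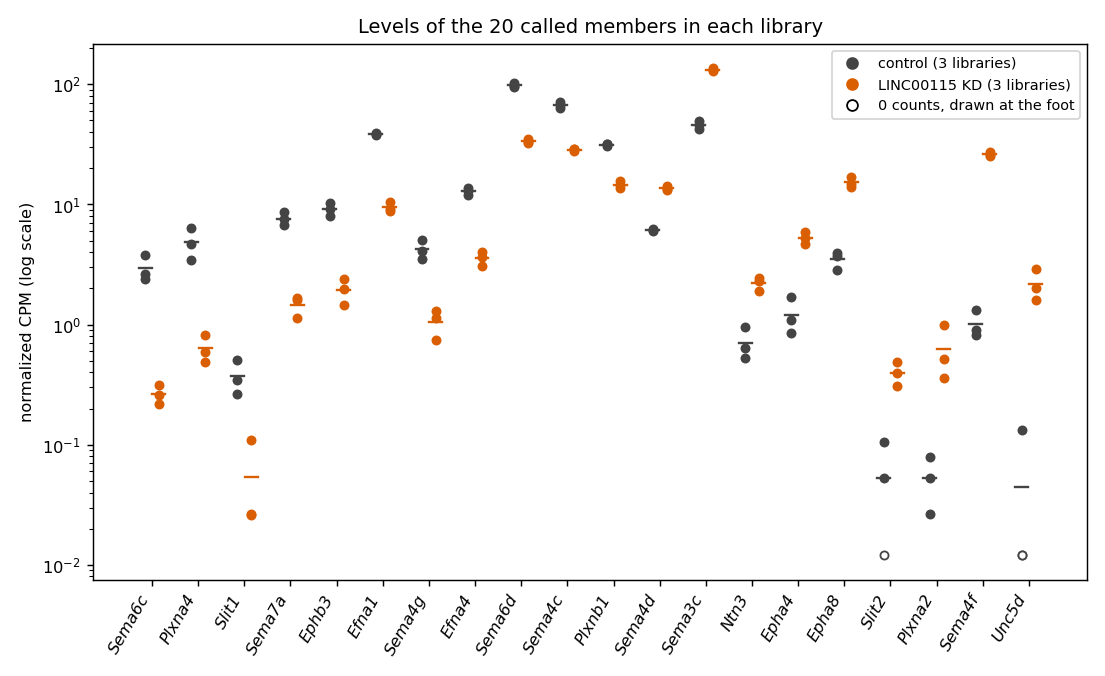
Normalized CPM on a log scale of the 20 guidance genes called lower or higher, ordered by log2 fold change, with 1 point per library and a short line at each group's mean. Control libraries are dark and KD libraries orange, and open points stand for 0 counts. In all 20 genes the groups do not overlap, from Sema6c (2.38 to 3.77 CPM in the control, 0.218 to 0.316 in KD) to Unc5d (0 to 0.132 CPM in the control, 1.60 to 2.90 in KD). The genes were called on these same libraries, so this lack of overlap is no separate result.

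Semaphorins of class 3 are secreted. Of the 5 that passed the filter, Sema3c was called higher and the other 4 fell, each by less than a fold change of 2. Over all genes tested, 10.2% were called higher and 36.7% fell. Sema3c, which signals through neuropilins and plexins and is known from heart outflow tract and tumour cell migration, had 42.7, 49.2 and 45.9 CPM in the control and 131, 136 and 128 CPM in the KD libraries. It rose 2.87-fold (log2 fold change 1.52, standard error 0.05, edgeR's adjusted p = 4.17e-24). Sema3f, a ligand of Nrp2, had 319, 329 and 318 CPM in the control and 220, 219 and 235 CPM in the KD libraries, a log2 fold change of −0.52 (standard error 0.04). Sema3e, which binds Plxnd1 without a neuropilin, fell from 78.7, 79.3 and 80.6 CPM to 62.2, 63.2 and 65.4 CPM (−0.32). Smaller or less certain were the decreases of Sema3b, described as a tumour suppressor in lung (−0.21, edgeR's adjusted p = 0.00382), with 46.4, 42.4 and 44.0 CPM against 36.0, 41.6 and 37.4 CPM, and of Sema3a, the classical repellent of sensory axons (−0.44, adjusted p = 0.0121). Sema3d had 0, 0 and 1 counts in the control and 40, 9 and 9 counts in the KD libraries, and Sema3g 2 to 15 counts in any library. Neither passed the filter.

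Class 4 semaphorins span the membrane. All 6 passed the filter, and 4 of them were called, Sema4f and Sema4d higher and Sema4c and Sema4g lower. The share of all genes called either way was 20.2%. Sema4f, a semaphorin described in neurons and glia, had 34, 31 and 50 counts in the control and 995, 930 and 1046 counts in the KD libraries, or 0.903, 0.821 and 1.32 against 25.7, 25.3 and 27.5 normalized CPM. It was 25.7-fold higher (log2 fold change 4.68, standard error 0.14, edgeR's adjusted p = 1.81e-25). Of the 13497 genes tested, 144 had a larger log2 fold change. Sema4d, the ligand of Plxnb1 and, as CD100, a protein of lymphocytes and of invading carcinoma cells, had 6.16, 6.20 and 6.06 CPM in the control and 14.1, 13.4 and 13.3 CPM in the KD libraries. It rose 2.21-fold (1.15, standard error 0.11).

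Sema4c, a ligand of Plxnb2, had 63.2, 70.7 and 66.7 CPM in the control and 28.7, 28.0 and 29.1 CPM in the KD libraries, 2.33-fold lower (log2 fold change −1.22, standard error 0.06, edgeR's adjusted p = 2.29e-19). Sema4g, also a ligand of Plxnb2, had 192, 133 and 154 counts in the control and 50, 42 and 28 counts in the KD libraries, 3.99-fold lower (−1.996, standard error 0.27). Sema4b fell by 0.22 on the log2 scale, from 92.6, 88.5 and 86.6 CPM to 70.2, 77.96 and 81.1 CPM. Sema4a had 2 to 10 counts in the control and 5 to 26 in the KD libraries, and its log2 fold change of 1.36 did not pass the test (edgeR's adjusted p = 0.083).

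In classes 5, 6 and 7 all 6 genes tested were lower in the KD libraries, and 5 of them passed the test. The share of all genes that fell was 36.7%. Sema6d, a transmembrane ligand of Plxna1, had 102, 97.6 and 95.6 CPM in the control and 33.1, 32.7 and 34.8 CPM in the KD libraries. It fell 2.94-fold (log2 fold change −1.55, standard error 0.05, edgeR's adjusted p = 6.23e-24). Sema6c had 142, 90 and 100 counts in the control and 10, 8 and 12 counts in the KD libraries. It was 10.97-fold lower (−3.46, standard error 0.38), and 70 of all genes tested had a larger decrease. Sema6b fell without being called, from 34.2, 31.4 and 32.0 CPM to 19.2, 20.1 and 17.2 CPM (−0.79). Sema6a, with 5.69 to 6.01 CPM in the control and 4.502 to 5.14 CPM in the KD libraries, did not pass the test (−0.28, edgeR's adjusted p = 0.114). Sema7a is anchored by a lipid and binds integrins as well as Plxnc1. It had 8.57, 6.70 and 7.54 CPM in the control and 1.60, 1.66 and 1.13 CPM in the KD libraries, 5.18-fold lower (−2.37, standard error 0.20). Sema5a, which carries thrombospondin repeats beside its semaphorin domain, fell from 47.4, 49.9 and 50.1 CPM to 34.2, 37.9 and 38.2 CPM (−0.42).

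Plexins are the receptors of the semaphorins and act as GTPase-activating proteins on small GTPases of the Ras family. Of 9 plexins, 7 passed the filter, of which Plxna4 and Plxnb1 were called lower and Plxna2 higher, beside 9.98% and 10.2% of all genes. Plxnb2 did not pass the test, with 635, 625 and 610 CPM in the control and 601, 609 and 604 CPM in the KD libraries (log2 fold change −0.04, standard error 0.03, edgeR's adjusted p = 0.203), while its ligands Sema4c and Sema4g were called lower. Every KD library of Plxnb2 lay below every control library, but by little. Plxnb1 had 32.0, 32.2 and 30.5 CPM in the control and 15.7, 14.4 and 13.7 CPM in the KD libraries, 2.16-fold lower (−1.11, standard error 0.08), whereas its ligand Sema4d was called higher. Plxnd1, the receptor of Sema3e and a plexin of endothelium, fell together with that ligand, from 105, 101 and 98.3 CPM to 67.6, 66.9 and 70.9 CPM (−0.57, standard error 0.05).

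The A plexins, partners of Nrp1 and Nrp2 and receptors of class 6 semaphorins, did not move together. Plxna1 rose 1.45-fold, from 192, 210 and 196 CPM to 288, 282 and 296 CPM (log2 fold change 0.54, standard error 0.04, edgeR's adjusted p = 5.75e-15). Plxna3 fell from 31.1, 25.9 and 23.6 CPM to 14.2, 12.4 and 15.3 CPM. At −0.94 it lay just under the fold threshold, and without control replicate 3 it was called lower (−1.02). Plxna4 had 242, 176 and 131 counts in the control and 23, 18 and 31 counts in the KD libraries, 7.61-fold lower (−2.93, standard error 0.29). Plxna2 had 2, 3 and 1 counts in the control and 14, 19 and 38 counts in the KD libraries, so that its call (3.48, standard error 0.73) rests on few reads. Plxnb3 and Plxnc1, the receptor of Sema7a, had at most 17 counts in any library and were not tested.

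**Figure D3:**
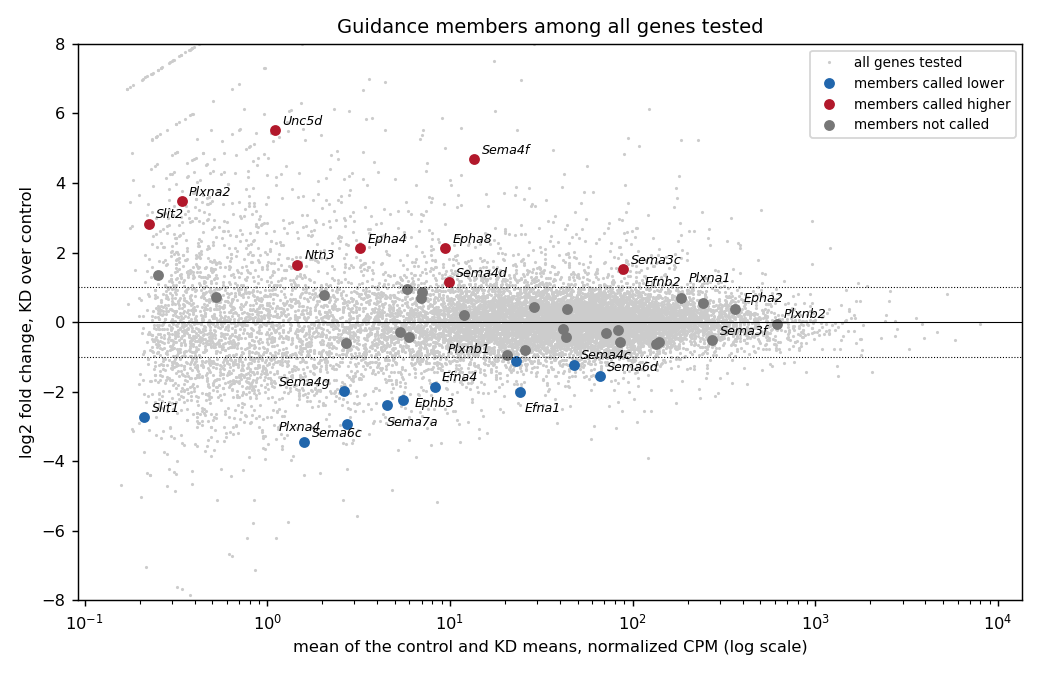
Log2 fold change (KD over control) against the mean of the control and KD means in normalized CPM (log scale), for all 13497 genes tested in light grey and the 46 guidance genes in colour. The vertical axis ends at ±8, and 28 genes lie beyond it, none of them a guidance gene. The most abundant guidance genes, such as Plxnb2, Epha2 and Sema3f, lie between the dotted lines of a fold change of 2, and the called genes have lower means, with Sema3c and Sema6d the most abundant of them.

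Slit ligands and Robo receptors had few counts, except Robo1. Robo1, a receptor of Slit2, had 178, 196 and 190 counts in the control and 336, 314 and 379 counts in the KD libraries. It rose 1.82-fold without being called (log2 fold change 0.86, standard error 0.14, edgeR's adjusted p = 1.36e-06). Slit2 had 4, 0 and 2 counts in the control and 12, 18 and 15 counts in the KD libraries and was called higher (2.83, standard error 0.79). Without control replicate 1 its log2 fold change was 3.75. Slit1 had 10, 19 and 13 counts in the control and 1, 4 and 1 counts in the KD libraries and was called lower (−2.73, standard error 0.79), with a change of −3.66 without KD replicate 2. Slit3 had 1 to 6 counts in any library. Robo2, Robo3 and Robo4 had 0 counts in every control library and totals of 12, 7 and 25 counts over the KD libraries, at most 12 in 1 library, and none passed the filter.

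Robo4 is a receptor of endothelial cells. Beside it, the sum of 8 endothelial markers was 1.22 to 1.86 CPM in the control and 57.6 to 60.3 CPM in the KD libraries, most of it from Cdh5, with 5 to 14 counts in the control and 2136 to 2243 counts in the KD libraries. Like Robo4, Cldn5 had 0, 0 and 0 counts in the control and 9, 9 and 18 counts in the KD libraries, and Kdr 0, 0 and 1 against 2, 10 and 2 counts, both without overlap and under the filter. Tek and Erg had at most 2 counts in any library, Pecam1 (6 to 19 counts) and Vwf (10 to 20) overlapped between the groups, and Tie1 was called lower (log2 fold change −1.61). The part of endothelial RNA in the Robo4 counts was not tested.

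Netrins are secreted proteins related to laminins. Ntn1, which draws or repels axons depending on the receptor, had 38.8, 38.0 and 37.4 CPM in the control and 46.7, 51.1 and 51.0 CPM in the KD libraries, a 1.304-fold rise (log2 fold change 0.38, standard error 0.06, edgeR's adjusted p = 5.68e-07). Ntn3 had 36, 24 and 20 counts in the control and 89, 70 and 93 counts in the KD libraries and was called higher, by 3.13-fold (1.65, standard error 0.36). Ntn4, a component of basement membranes, had 3 to 26 counts, of which the 26 were those of KD replicate 1, and Ntn5 had 0 to 4 counts. Both stayed under the filter.

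Unc5 receptors mediate repulsion by netrins and are known as dependence receptors, which can trigger cell death when no ligand is bound. Unc5b had 167, 170 and 166 CPM in the control and 116, 109 and 112 CPM in the KD libraries. It fell 1.49-fold (log2 fold change −0.58, standard error 0.04, edgeR's adjusted p = 3.76e-15) while its ligand Ntn1 rose. Unc5d, a member of the family that also binds FLRT proteins, had 0, 5 and 0 counts in the control and 62, 74 and 110 counts in the KD libraries. It was called higher, with a fitted log2 fold change of 5.52 (standard error 0.63). All control counts lay in control replicate 2. Without that library both remaining controls are at 0, and the KD mean of 2.17 CPM lay 27.1-fold above a limit of 3 counts (0.0802 CPM). Control replicate 2, at 0.132 CPM, lay above this limit, so the ratio is no lower bound for all 3 control libraries. Unc5c had 0 counts in every control library and 2, 13 and 12 counts in the KD libraries, and Unc5a had 0 counts in all 6.

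Several members thus had few or no counts in the control libraries and more in the KD libraries, namely Unc5d, Unc5c, Robo2, Robo4, Sema3d, Plxna2 and Slit2. They were picked for this pattern after their values were seen, and the share of all genes with it was not counted. Unc5d, Plxna2 and Slit2 passed the filter only through the KD libraries. The sums of the lung and kidney markers named above were also higher in the KD libraries, which holds for any gene picked as higher there. The part of lung or kidney RNA in these members was not tested.

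Of the further genes of guidance signalling, 106 were found in the table and 87 passed the filter, among them co-receptors and adaptors. Of these, 0 were called lower and 6 called higher (6.90%) by edgeR's quasi-likelihood test, beside 9.98% and 10.2% of all genes, and with DESeq2 the numbers were 2 lower and 9 higher. Without the fold threshold 29 fell (33.3%) and 38 rose (43.7%), beside 36.7% of all genes each way. These were also the numbers at an unadjusted p under 0.05. The median log2 fold change was 0.03, and the median size of the change 0.339, beside 0.453 over all genes and 0.902 over the ligands and receptors. No test compared these sets of genes.

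Among the co-receptors, Nrp2, a receptor of Sema3f, had 490, 504 and 489 CPM in the control and 474, 492 and 469 CPM in the KD libraries and did not pass the test (log2 fold change −0.05, standard error 0.03, edgeR's adjusted p = 0.191). Nrp1, a receptor of Sema3a, rose from 10.99, 14.01 and 11.99 CPM to 15.4, 15.2 and 16.5 CPM (0.35). Neo1, a receptor of netrins and of repulsive guidance molecules, fell from 252, 266 and 245 CPM to 211, 214 and 213 CPM (−0.26). Dcc, the attractive netrin receptor, had 0 to 23 counts in any library and was not tested. Met, the receptor of hepatocyte growth factor, which can associate with B plexins, rose from 208, 222 and 214 CPM to 281, 284 and 274 CPM (0.38). Adam10, a protease that sheds ephrins, fell from 196, 200 and 193 CPM to 141, 144 and 149 CPM (−0.44). Met, Neo1, Nrp1, Nrp2, Dcc and Adam10 were named after their values were seen, as partners of members.

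Of the 6 called genes, 4 are described here, 1 in each of 4 lists. The cell adhesion molecule Nrcam was called higher among 12 co-receptors and cues tested. It had 4, 9 and 13 counts in the control and 79, 52 and 60 counts in the KD libraries. Nrcam had fewer than 100 counts in each KD library and was named after its values were seen. In the list of 22 effectors of ephrins and Ephs, Rgs3, which links B-type ephrins to G proteins, had 10.8, 9.93 and 9.29 CPM in the control and 20.4, 23.0 and 20.4 CPM in the KD libraries (log2 fold change 1.09). Micall1, a relative of the plexin effectors of the Mical family that acts in endosome recycling, rose 2.12-fold among 18 semaphorin and plexin effectors. It had 157, 145 and 157 CPM in the control and 321, 329 and 326 CPM in the KD libraries. The actin-binding Ablim3, of 15 netrin and Slit effectors, had 13, 12 and 7 counts in the control and 118, 124 and 130 counts in the KD libraries (3.52, standard error 0.36).

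**Figure D4:**
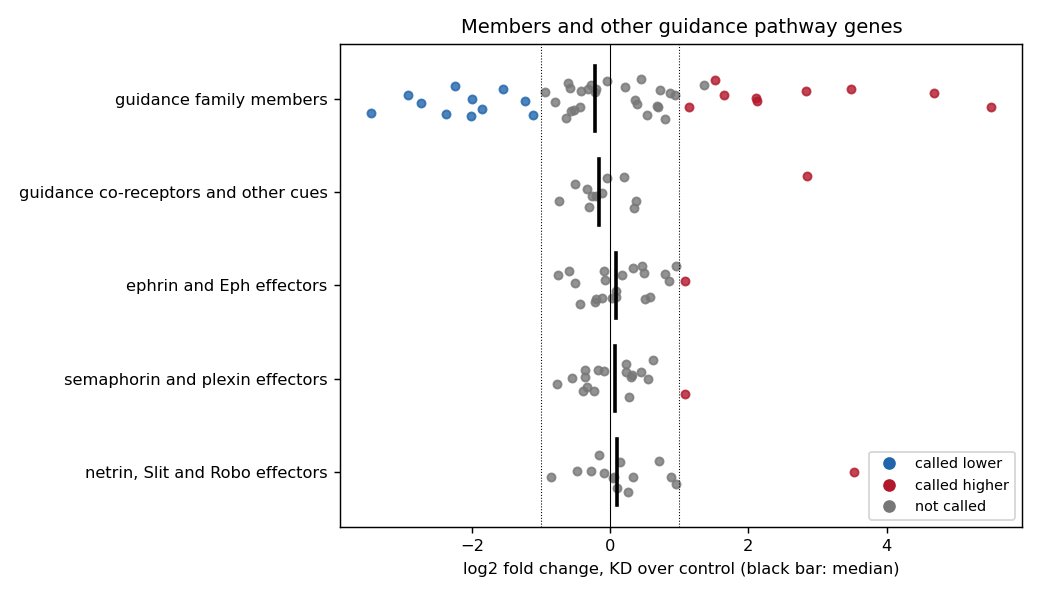
Log2 fold change (KD over control) of the 46 tested guidance ligands and receptors in the top line and of 67 further guidance pathway genes in 4 lists below it, 1 point per gene, with black bars at the medians. The ligands and receptors spread from −3.46 to 5.52, and 63 of the 67 further genes shown lie between the dotted lines of a fold change of 2.

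Gene order was taken from the human assembly GRCh38.p14 in RefSeq, since that of the counted gene models is not known here. EFNA4, EFNA3 and EFNA1 follow each other on human chromosome 1. Efna4 and Efna1 were both called lower, Efna3 had too few counts, and the genes on either side were not called, with log2 fold changes of 0.32 for Adam15 and −0.20 for Slc50a1. SEMA4F lies on chromosome 2 between M1AP and HK2. On one side of it, M1ap (1.60), Dok1 (1.72) and Htra2 (1.05) were called higher and Loxl3 (0.95) rose, and on the other side Hk2 fell (−0.55) and Pole4 rose (0.28). The change of Sema4f (4.68) was larger than that of each of these neighbours. SEMA6C lies on chromosome 1 between GABPB2 and LYSMD1, whose changes were 0.36 and −0.33, the latter not past the test (edgeR's adjusted p = 0.237). SEMA3C and SEMA3E lie on chromosome 7 with HGF, CACNA2D1 and PCLO between them, and went opposite ways. Neighbours are described for these genes only, chosen after their values were seen, and whether position bears on any change was not tested.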

How the data were processed

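The labels name TRIzol and a SMARTER kit for RNA and libraries, and the paper's methods an RNeasy Plus and a NEBNext Ultra kit. The authors trimmed adapters and mapped reads with HISAT2. The paper's methods name hg19 and the submitters' processing notes name hg38, featureCounts and DESeq2, without roles. Neither the annotation nor any strand setting is given in the sources used here, so paralogs or overlapping genes may share reads. The deposited values are whole-number counts per gene, not normalized. Columns were matched to samples by the descriptions in the labels, and 0 columns were left out. All 22989 genes entered the library totals.

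The test was edgeR 4.0.16 in R 4.3.3, with filterByExpr (minimum count 10, minimum total 15), TMM scaling and a quasi-likelihood test with the group only, adjusted over 13497 genes. Normalized CPM use TMM-scaled totals and are not divided by gene length, so levels are compared between groups and not between genes. Standard errors are the log2 fold change divided by the root of F. The common biological coefficient of variation was 5.21%. For pairs within a group, a chi-square of the counts came to 3.88 to 7.60 per degree of freedom, above sampling noise, so no library was a copy. The pipeline was tested on simulated counts.

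Members and lists were chosen with earlier results of these data known. Named are all called members, those with a mean of at least 1000 counts, those nearest to the fold threshold and, per pathway list and direction, the called gene with the largest change where each library of the higher group reached 100 counts. Of the pathway lists, 1 is counted in the totals and not reported here on its own. Other genes were named after their values were seen. Marker lists covered mesenchymal and epithelial breast, stem, endothelial, neuronal, fibroblast, leukocyte, lung and kidney genes. Summed levels of the first 3 lists were 9360 to 9560, 239 to 251 and 893 to 898 CPM in the control and 8700 to 8900, 318 to 325 and 602 to 620 CPM in the KD libraries. The sum of the stem list is mostly Itga6 and Cd24a, which mark such cells in opposite senses, so its direction is not read. The alternatives were other scalings, other filters, DESeq2 1.42.0, single libraries left out, a replicate block, no fold threshold and a test against a fold change of 1.5.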

Additional observations from a re-analysis of the deposited data

How the results depend on the processing

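The numbers of members called, 11 lower and 9 higher, were 11 and 9 with each of 3 other scalings and with the replicate number as a block. They were 11 and 13 without a filter on low counts, 9 and 6 with at least 10 counts in every library, 11 and 12 by DESeq2, and 13 and 12 in a test against a fold change of 1.5. Without a fold threshold they were 23 and 18. With single libraries left out they ranged from 11 to 12 lower and 10 to 11 higher. Same-numbered libraries did not deviate together (correlations of −0.021 to 0.042 across genes), so the numbers were not taken as pairs, and the replicate block gave 1316 lower and 1360 higher genes in all. The 1347 lower and 1381 higher genes among all genes became 4960 and 4952 without a fold threshold. They were 919 and 903 with at least 10 counts in every library and 1570 and 1793 without a filter on low counts. With the 3 other scalings they were 1334 to 1427 and 1305 to 1390. They ranged from 1257 to 1392 and from 1405 to 1488 with single libraries left out. All-gene numbers by DESeq2 and against a fold change of 1.5 are not given here, so the member numbers there stand without a background. For the other pathway genes, 0 lower and 6 higher became 2 and 9 without a filter, 2 and 9 with DESeq2, 2 and 12 against a fold change of 1.5 and 29 and 38 without a fold threshold, and the lower genes ranged from 0 to 1 with single libraries left out.

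The members' median log2 fold change of −0.216 was the least stable value. It was −0.278 with at least 10 counts in every library, 0.367 without a filter, where members near 0 counts in the control libraries enter, and −0.134 to −0.032 with single libraries left out. Each of the 36 members named by the rule kept its direction under every alternative that gave it a value. Among them, calls changed for Epha1 and Plxna3, as given above, when single libraries were left out. The 5 called members without 10 counts in every library have no value under that filter. Members with few counts, such as Slit1, Slit2, Plxna2 and Unc5d, are limited by depth.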
